A study of Mus musculus with 2 samples.

Results

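The genes described are those of the cytosolic ribosome. They were taken by symbol: every probe outside the array's controls whose gene name was Rpl, Rps or Rplp followed by a number, with letters such as a, l or x allowed after it, and without the Rps6k kinases. The rule gave 85 genes with 183 probes, of 56605 probes outside the controls: 53 genes of the large subunit with 107 probes and 32 genes of the small subunit with 76 probes. The data are 2 one-colour Agilent arrays hybridised with Cy3-labelled RNA from mouse blood, 1 for each of a heated and a control sample. Total RNA came from a blood kit that lyses red cells apart from white cells, and globin transcripts had been removed from both samples. Heating meant 38.5 °C for 1 h, after 1 h in a water bath held at 37 °C. No temperature or time is given for the control, and neither strain, sex, age nor whether animals or drawn blood were heated is stated, so the effects of heat, of the 37 °C step and of handling cannot be told apart. The labels' protocols speak of 3 replicates, but each group held 1 array, both on 1 slide, and whether RNA was pooled is not stated. The differences below therefore have neither a replicate check nor a p-value. Differences are heat minus control on a log2 scale, so that 1 is a 2-fold difference.

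Each ribosome carries a single copy of most of its proteins, which are held on the ribosomal RNAs of a large and a small subunit. Their mRNAs are among the most abundant in growing cells, and most begin with a pyrimidine tract through which mTORC1 and Larp1 control their translation. The mRNA pool therefore need not follow ribosome production, which heat shock and other stresses also govern at the nucleolus and at the start of translation. A few members have paralogues with restricted expression, among them Rpl10l and Rpl39l of the testis and Rpl3l of muscle.

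The probes on which the results turn are shown from the deposited sequence column, 5′ to 3′, with mm9 coordinates as the files give them. No annotation of that build was used here, so exons and UTRs were not assigned. A pair of Rps20 probes and a pair of Rps3a1 probes cover nearly the same bases and yet gave different values, so 30 aligned bases of each are given, with the bases at which the partners differ in capitals. The Rps20 probes lie at chr4:3761620-3761679 and chr4:3761615-3761674, and the Rps3a1 probes at chr3:85941887-85941946 and chr3:85941875-85941934, all on the minus strand.
Rps20, lower value: cctaagacaactgaataaatcgTcttaatG
Rps20, higher value: cctaagacaactgaataaatcgActtaatA
Rps3a1, lower value: ccgccagtccaagaatcagtAtaaaatcca
Rps3a1, higher value: ccgccagtccaagaatcagtGtaaaatcca
An Rps24 probe (chr14:25315021-25315080, plus strand) shares a run of 38 bases with a probe that the file names NAP114395-1 (chr1:55392685-55392744, plus strand). The 30 bases below hold the end of that run, and the capitals mark the bases after it.
Rps24: gagaggacaaaTAAACTAAAAAGCTTCTAC
NAP114395-1: gagaggacaaaCTAAAAAGCTCCTACCAAA
The probes of Rpl39l (chr16:10174657-10174716, plus strand) and Rpl37 (chr15:5068935-5068994, plus strand) gave the lowest and the highest difference, and their first 30 bases are shown. Rpl10l (chr12:67384868-67384927, minus strand) was detected on the control array alone, and Rplp0 (chr5:116013397-116013456, plus strand) had a single probe. Their whole probes of 60 bases follow.
Rpl39l: ctgtgctttagtgagttcattcagcagttc
Rpl37: ctaccatgcctacagtgtcttaagacgctt
Rpl10l: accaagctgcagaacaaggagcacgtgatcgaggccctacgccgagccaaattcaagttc
Rplp0: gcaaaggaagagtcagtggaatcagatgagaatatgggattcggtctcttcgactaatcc

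Ribosomal protein mRNA was measured almost throughout. Of the 183 probes, 179 were well above background on both arrays, by the scanner software's flag, and they gave a value for 83 of the 85 genes: 51 of the large and 32 of the small subunit. Rpl10l was well above background on the control array only, and Rpl3l on neither array. Of all probes, 30471 were well above background on heat, 29460 on control and 28755 on both, so detection on 1 array alone was not particular to Rpl10l. No member spot was saturated. A set of 65 member probes, of 48 genes, was printed at 10 spots on each array, of which 8 to 10 were kept, and the other 118 stood at 1 spot. The repeated spots give the technical spread within an array. The median SD over spots was 0.052 with heat and 0.022 in the control, and 58 of the 65 probes had the larger SD on the heat array.

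**Figure D1:**
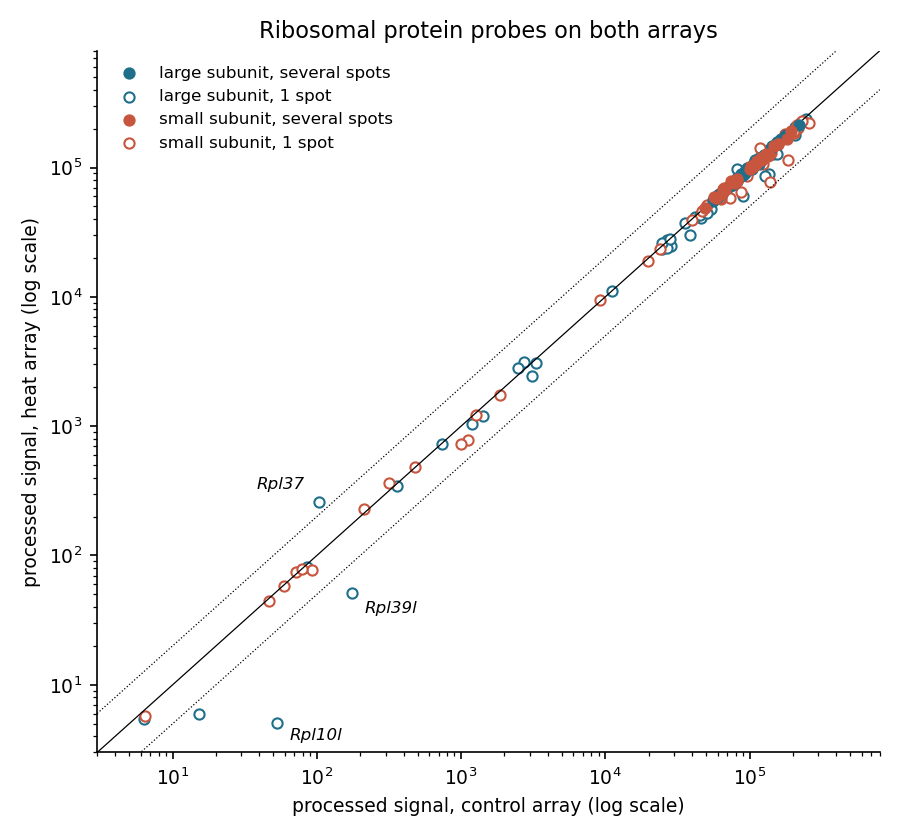
Processed signal of the 183 ribosomal protein probes on the control array (horizontal) and the heat array (vertical), both on log scales and before scaling; filled points stand for probes at several spots and open points for probes at 1 spot. The solid line marks equal signals and the dotted lines 2-fold, and Rpl37, Rpl39l and Rpl10l lie outside the dotted lines at low signals, as does a second, undetected probe of Rpl11.

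The ribosomal protein genes lay at the level of the control. Their median difference was -0.0024 over 83 genes, against 0.0075 over all 18685 genes measured, with 40 genes above and 43 below 0. The sign of the member median turned with the scaling, between -0.0090 and 0.015, so no direction is given to it. A 2-fold difference was reached by 2 of 83 genes, Rpl37 upward and Rpl39l downward, which is 2.41%, beside 0.658% of all genes (0.209% higher and 0.45% lower). By probe, 2 of 179 were 2-fold different, 1.12%, beside 0.689% of all probes (0.247% higher and 0.442% lower). Within 0.1 of 0 lay 65 of the 83 genes, 78.3%, and of all genes 48.4%. The gap was small among bright probes: of those at 1 spot with a signal of at least 10000 on both arrays, 71.1% of 90 member probes and 69.9% of 2926 probes of other genes lay within 0.1 of 0. Within 0.25 of 0 the members had the smaller share, 88.9% against 95.2%, and the larger SD, 0.18 against 0.13.

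Neither subunit stood away from 0. The 51 large subunit genes had a median of 0.0079, with quartiles of -0.041 and 0.029, and 29 of them lay above 0. The 32 small subunit genes had a median of -0.014, with quartiles of -0.056 and 0.019, and 11 lay above 0. Over the 6 other scalings and value tables the medians ran from -0.0025 to 0.027 for the large and from -0.019 to 0.0012 for the small subunit. The sign of each therefore turned with the scaling. The large subunit median lay above the small one under all of them, but median scaling, which shifts a whole array by 1 value, could not have changed that order. Over the 65 member probes at several spots, differences ran from -0.096 (Rpl27) to 0.11 (Rps3a1) with a median of 0.021. At 1 spot, 114 usable probes ran from -1.73 to 1.36 with a median of -0.0015.

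**Figure D2:**
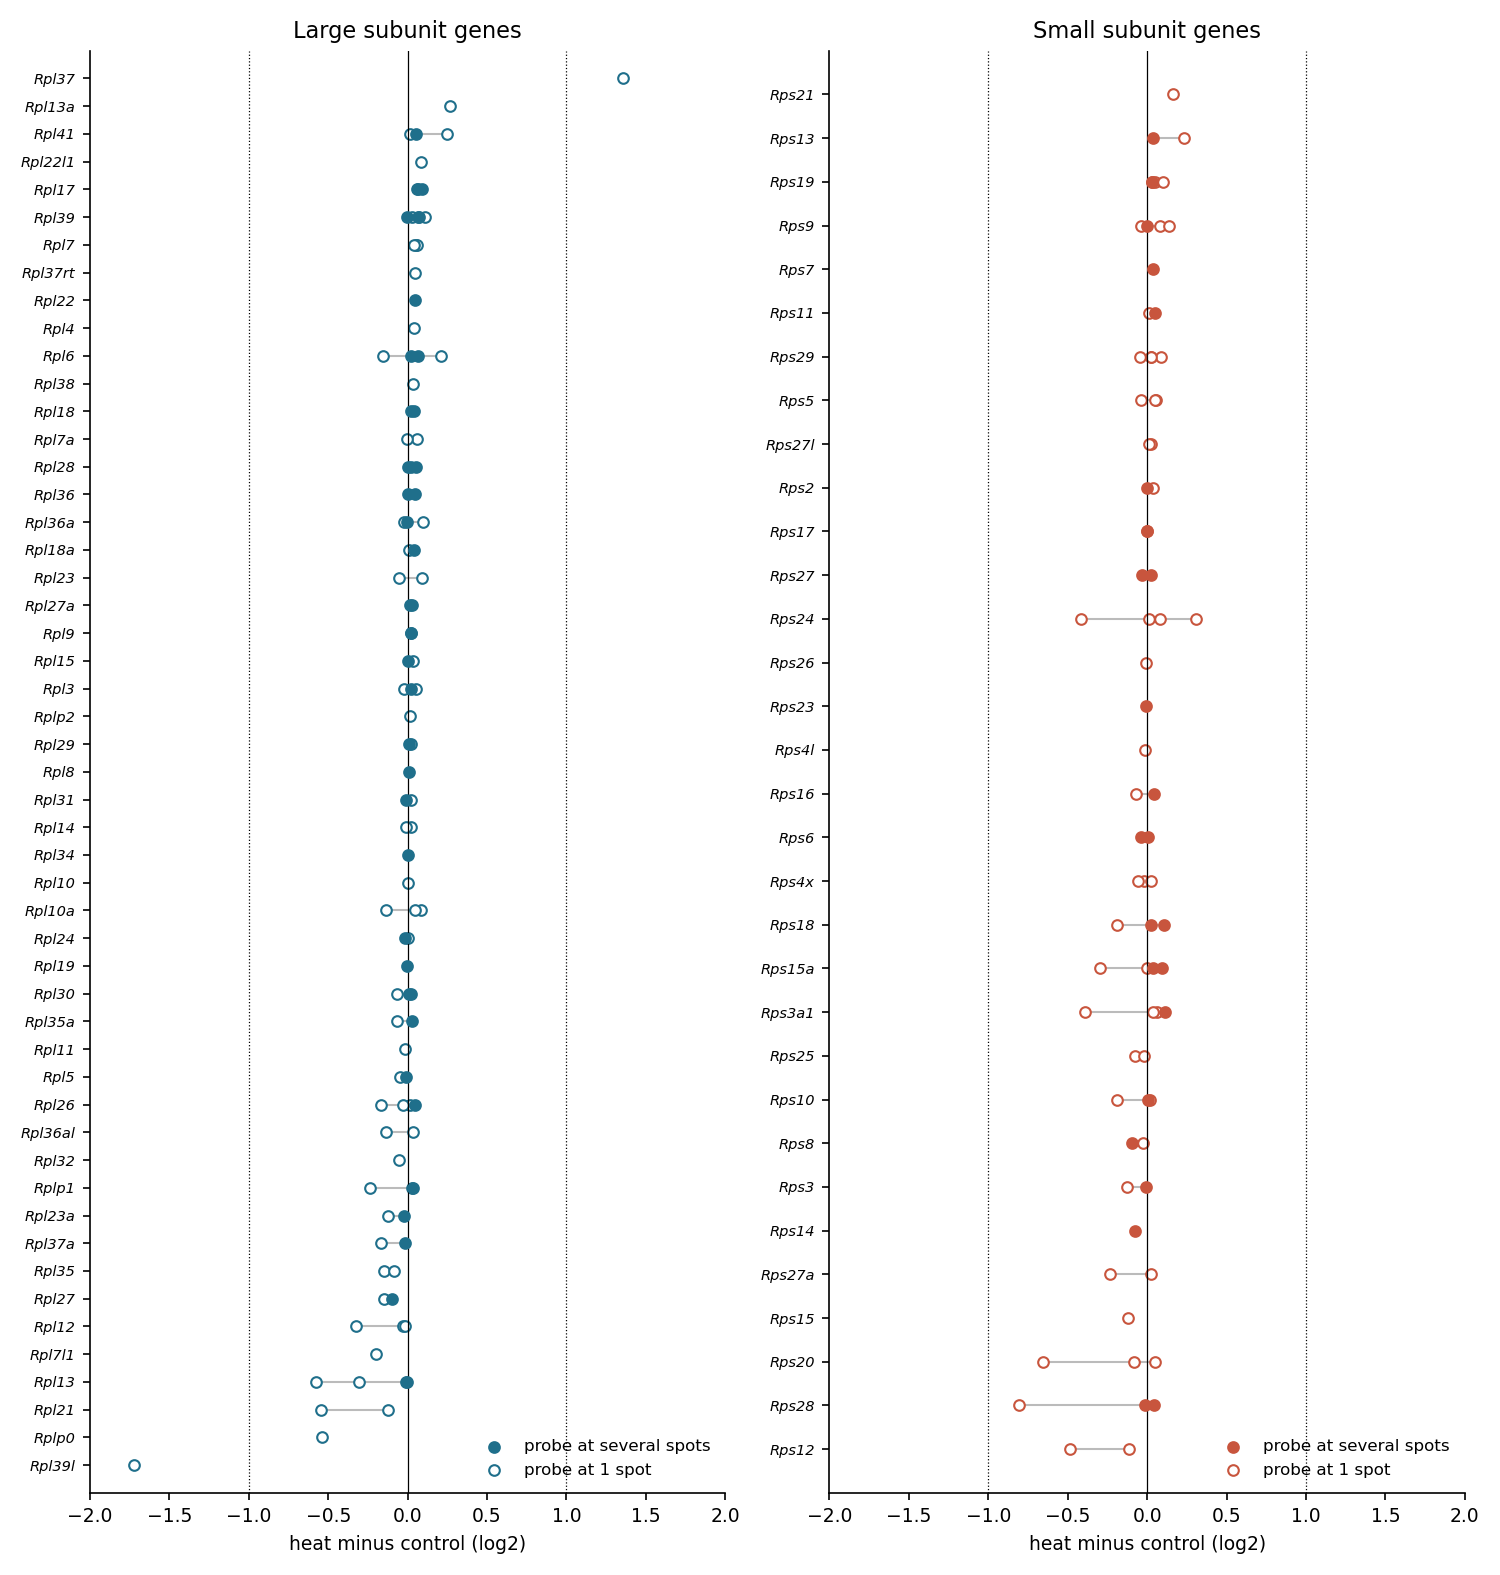
Heat minus control difference (log2) of each usable probe of the 51 large subunit genes (left) and the 32 small subunit genes (right), ordered by the gene's mean; filled points are probes at several spots, open points probes at 1 spot, and grey lines join the probes of a gene. Dotted lines mark 2-fold. The filled points all lie between -0.096 and 0.11, while the points far to the left and right are open.

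Members often followed outside ribosome studies are given next. Rpl5 and Rpl11, which with 5S ribosomal RNA can bind the p53 inhibitor Mdm2, had signals of 73658 (heat) and 76073 (control) for the repeated Rpl5 probe, and of 187540 and 195254 for Rpl11. Their gene differences were -0.028 and -0.019. Rps6, the small subunit protein phosphorylated by S6 kinases, was read by a pair of probes at several spots. The brighter one had 115095 on heat and 121470 on control, a difference of -0.039, and the other 57627 and 58985, a difference of 0.0051. Rps18 and Rpl13a are often used as reference genes in quantitative PCR. The repeated Rps18 probes differed by 0.023 and 0.11 and its single-spot probe by -0.19 (220567 against 258867), so its probes lay on both sides of 0. Rpl13a had 1 probe, at 96744 on heat and 82530 on control, a difference of 0.27, the second highest among members. Rps21 followed at 0.17 (134110 against 122771) with 1 probe, and at 0.054 and 0.080 with normexp correction. Rps13 lay at 0.13, with 0.035 at its 10 spots and 0.23 at a dim single spot (363 against 317), and Rpl41, the smallest ribosomal protein, at 0.11 with probes between 0.014 and 0.25. The upper end, Rpl37 included, thus came from single spots.

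The acidic stalk of the large subunit, which recruits the elongation factors, is built of Rplp0, Rplp1 and Rplp2, and its members did not share a value. The single Rplp0 probe, the anchor of the stalk, read 86285 on heat and 128640 on control, a difference of -0.54. For Rplp1 the probe at 10 spots read 180016 and 180316, a difference of 0.036, a single-spot probe that overlaps it gave 0.027, and another gave -0.24. Rplp2 read 208603 and 211924, a difference of 0.016. The difference of Rplp0 thus lay below those of the other stalk proteins, and no second Rplp0 probe was on the array to set beside it.

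Rpl22l1, the paralogue of Rpl22, read 27761 on heat and 26859 on control, a difference of 0.086, beside 0.044 for Rpl22. Rps27l, a target of p53, read 45948 and 46496 with 1 probe and 23382 and 23782 with the other, and its difference of 0.018 stood beside -0.0035 for Rps27. Both Rps27 probes were placed on chr9, while the gene lies on chr3, and whether they read a copy was not tested. Rpl36al, a copy of the X-linked Rpl36a, lay at -0.050 with probes at -0.14 and 0.037, and Rpl36a at 0.026. Rpl7l1, a Rpl7-like protein, read 1203 and 1416, a difference of -0.20, and Rpl7 had 0.050 over 3 probes. Rps4l lay at -0.013 and Rps4x, the X-linked form, at -0.017. Rpl37rt, a retrotransposed copy of Rpl37, lay at 0.046 with signals of 207273 and 206268. The only probe named Rpl37, described below, was dim and gave a far higher difference.

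Rpl39l and Rpl10l, both known from male germ cells, were dim and lower on the heat array. Rpl39l read 51.7 on heat and 176 on control, a difference of -1.73, which was -0.97 and -1.02 after normexp background correction. Rpl39, its parent, read between 24717 and 137196 over 5 probes and both arrays, and its difference was 0.055, with every probe between -0.0023 and 0.11. Rpl10l read 5.06 on heat, where it was not well above background, and 53.3 on control. Against the lowest signal well above background on the heat array, 24.9, it was at least 2.08-fold lower with heat. That bound rests on 1 dim spot per array, and the lowest such signal on the control array was 31.0. Rpl10, the X-linked parent of Rpl10l, read 238856 and 245386, a difference of -0.00026. Of 6 testis germ cell markers, 1 was detected on each array, Tnp1 on heat and Prm1 on control, and Ddx4, Dazl, Sycp3 and Acrv1 were on neither.

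Rpl37 was the sole member at least 2-fold higher. Its only probe was dim, at 260 on heat and 104 on control, a difference of 1.36, which was 0.98 and 0.94 with normexp correction. The Rpl37rt probe read 207273 and 206268, and whether so dim a probe reads Rpl37 mRNA was not tested. The pixels of the Rpl37 spot varied by 36.5% of their mean on heat and 32.8% on control. The spots within 2 rows and 2 columns of it on the slide had a median difference of 0.034, with a highest value of 1.79, and those around Rpl39l a median of 0.028, with a lowest of -0.27.

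Agreement between probes of one gene was close for most genes and poor for a few. Among 59 genes with at least 2 usable probes, the median range between the lowest and the highest probe was 0.093, and 31 genes had a range under 0.1. All probes lay on one side of 0 for 27 genes, 15 above and 12 below, and on both sides for 32. In the 33 genes with both kinds of probe, the mean of single-spot probes minus that of repeated probes ran from -0.82 to 0.20 with a median of -0.037, and it was below 0 in 21 genes and above in 12. A range of at least 0.5 was seen in 5 genes: Rps28, Rps24, Rps20, Rpl13 and Rps3a1.

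In these genes 1 or 2 single-spot probes stood apart from the rest. Rps28, a small protein at the mRNA exit, had a single-spot probe at 77238 on heat and 138822 on control, a difference of -0.81. Its probes at 10 spots read 151200 and 156898, and 147203 and 147017, which gave -0.015 and 0.040. The gene's mean of -0.26 therefore came from that probe.

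Rps20, at the head of the small subunit, had the overlapping probes printed above. The one with the lower value read 114889 on heat and 185841 on control, a difference of -0.66. Its partner, 5 bases along and with a common run of 44 bases, read 128988 and 140142, a difference of -0.081, and a dim probe elsewhere gave 0.050. For Rps3a1 the lower probe read 64541 and 86897, a difference of -0.39, and its partner at a shift of 12 bases 86722 and 86954, a difference of 0.035. The Rps3a1 probe at 10 spots gave 0.11 and the remaining probe 0.065.

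Rpl13 had 3 values at or below -0.011 on single spots and -0.0022 on 10 spots. Its probe at -0.57 read 89043 on heat and 136125 on control, the one at -0.31 read 30327 and 38533, and the repeated probe 91072 and 93688. Rps24 had probes well apart on both sides of 0. The probe printed above read 142162 on heat and 117854 on control, a difference of 0.31, a dim probe read 733 and 1006, a difference of -0.42, and the others gave 0.011 and 0.081. NAP114395-1, which shares 38 bases with the first of these, read 63450 and 122250, a difference of -0.91. Rpl21 read 60430 and 90749 with one probe, a difference of -0.55, and 61514 and 68800 with the other, a difference of -0.12. An unnamed probe on the array with 48 bases of the first Rpl21 probe lay at -9.3e-05. Rps12 had -0.49 at a dim probe (781 against 1125) and -0.12 at a bright one (183454 against 204163).

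Among bright single spots, several of those lowest with heat were less even on the heat array than on the control array. The coefficient of variation over a spot's pixels (SD over mean) is a measure of spot evenness. For the Rps20 probe at -0.66 it was 8.49% on heat and 1.88% on control, and for its partner 2.65% and 2.15%. The Rps28 probe had 8.60% and 1.87%, the Rps3a1 probe 14.2% and 2.04%, the Rpl21 probe 14.5% and 2.08%, and NAP114395-1 22.5% and 1.42%. Rplp0 did not show that contrast, with 5.31% and 4.79%, nor did the Rps15a probe at -0.30, with 5.08% and 5.92%. The Rpl13 probe at -0.57 was over 5% on both arrays, with 9.03% on heat and 5.82% on control.

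Of the 90 bright single-spot member probes, 8 lay at -0.25 or lower, and each of them had a pixel variation over 5% on the heat array. Of 50 member probes at or under 5% there, none lay at -0.25 or lower, and they ran from -0.19 to 0.31. The 40 over 5% ran from -0.81 to 0.27, with a median of -0.025. The 5% limit was set once values had been seen, and Rps15a (5.08%) and Rplp0 (5.31%) lay just above it on heat. The splits at 5%, here and below, therefore rest in part on where the limit was placed. A variation over 5% on heat was common: it was seen in 44.4% of these member probes and in 71.9% of all 3016 bright single-spot probes, whose median difference was -0.0092 above that limit and 0.015 at or under it. Across the 90 probes, which share both arrays and in part their gene, the difference and the log2 ratio of pixel variation (heat over control) had a Pearson r of -0.58 and a Spearman rho of -0.37. Rps12 and an Rps29 probe were uneven on heat, at 21.9% and 9.03%, and lay at -0.12 and 0.025. When genes were read only from probes with at most 5% on both arrays, 57 genes remained, with differences from -0.19 (Rps10) to 0.17 (Rps21). The part of spot evenness in the low values was not tested. On the slide, the surroundings of these spots were mixed. Within 2 rows and 2 columns the median difference was -0.0071 around the Rps28 spot, 0.064 around Rps20, 0.049 around Rps3a1 and -0.038 around Rpl21, and it was -0.18 around Rplp0. Single neighbours were as low as some of these spots, however, with lowest values of -0.59 around Rps28, -0.72 around Rps20, -0.35 around Rps3a1, -0.87 around Rpl21 and -0.83 around Rplp0.

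**Figure D3:**
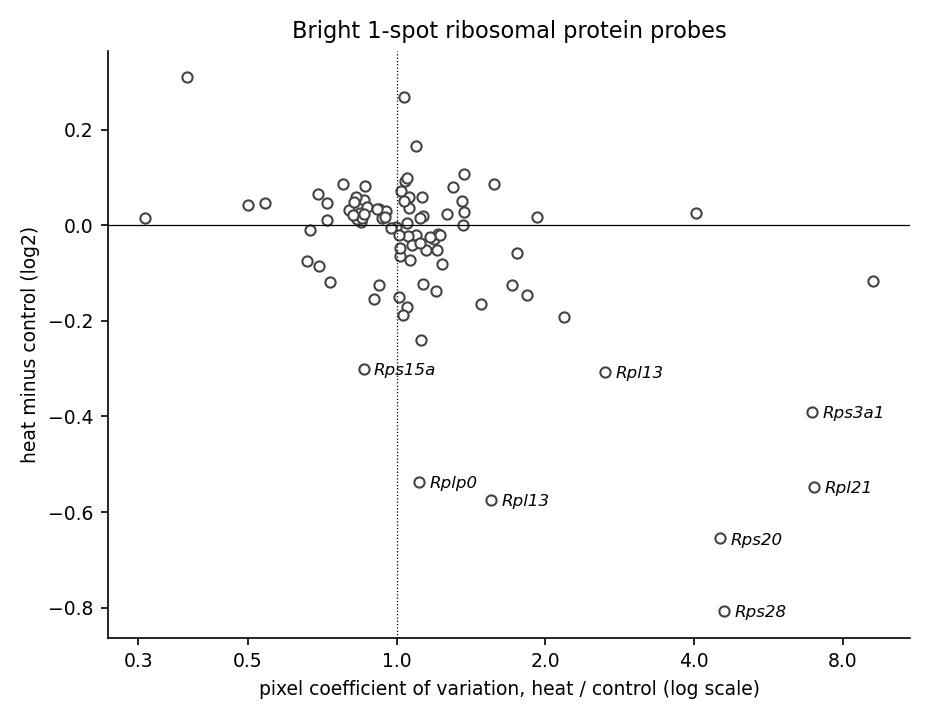
Heat minus control difference (log2, vertical) of the 90 ribosomal protein probes at 1 spot with a signal of at least 10000 on both arrays, against the ratio of the spots' pixel coefficient of variation, heat over control (log scale, horizontal); each point is a probe. The 8 probes at -0.25 or lower are named, and those of Rps28, Rps20, Rpl21 and Rps3a1 lie at high ratios while Rplp0 and Rps15a lie near 1.

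Ribosomal protein genes have many processed pseudogenes, and a probe can read their transcripts too. On the array, 62 other usable probes, mostly unnamed or predicted transcripts, shared an exact run of at least 25 bases with a probe of 37 member genes. Their median difference was 0.042, and 49 of them lay within 0.1 of 0. The lowest was NAP114395-1, followed by a probe with 37 bases of the Rpl13 probe at -0.31, which lay at -0.44. Among 11 overlapping pairs of probes of one gene, the gap was under 0.1 in 7 and at least 0.25 in 2, those of Rps20 and Rps3a1. Of 182 member probes with coordinates, 7 were placed on another chromosome than their gene (of Rpl13, Rpl36, Rps27 and Rps29), and their differences ran from -0.042 to 0.087. Signals of a gene and of such copies cannot be told apart here. The 5 names of numbered pseudogenes, which the rule leaves out, had 6 probes. Rpl17-ps8 lay at 0.68 (28372 against 18152) and the other 5 probes between -0.020 and 0.058.

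Other genes of the ribosome and of translation were read from lists, as counts of genes below 0 and medians for most of them, with no test. Of all 18685 genes, 8934 lay below 0. Among ribosomal proteins with other symbols, Fau lay at -0.043, Rpsa at 0.00017 and Rack1 at 0.045. Of 78 mitochondrial ribosomal protein genes, 51 lay below 0 with a median of -0.027. Of 33 initiation factors, 22 lay below 0 with a median of -0.043. Over the other scalings and value tables the count ran from 19 (quantile normalization and the authors' table) to 23 (median scaling). The median ran from -0.048 to -0.022. Eif3a, the largest subunit of eIF3, was lowest at -0.59, though its probes lay at -1.12 and -0.059, the latter the brighter. All 9 elongation and release factors lay below 0, with a median of -0.12, and 8 of 9 under both normexp settings. On the brightest probe per gene all 9 lay below 0, with a median of -0.079. Gspt1, the release factor eRF3, was lowest at -0.26, and lay at -0.16 on its brightest probe. Of 8 other mRNAs with a pyrimidine tract at their start, 6 lay below 0 with a median of -0.035, and Vim (vimentin) was lowest at -0.53. That leaning was not kept: 4 of 8 lay below 0 under quantile normalization, in the authors' table and under both normexp settings, where the median was -0.0069 and -0.0048. None of these genes was 2-fold different.

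Ribosome assembly factors lay lower than the ribosomal proteins that they assemble. Of 26 factors, 25 lay below 0, with a median of -0.23 and quartiles of -0.25 and -0.15, against a median of 0.0075 and 8934 of 18685 genes below 0 in all. Under the other scalings and filters, the 2 choices of probes by spots aside, the median ran from -0.23 to -0.20. Mdn1, the large ATPase of 60S assembly, was lowest at -0.62 over 4 probes between -0.86 and -0.18, the last being its brightest. Polr1b, a subunit of RNA polymerase I, lay at -0.48, or at -0.23 with a dim probe let in, and Nop58, a core protein of box C/D particles, at -0.41 with 5 probes between -0.59 and -0.25. Pes1 was the sole factor above 0, at 0.0069. All 8 genes listed as chaperones and 5S particle assembly factors, which include the phosphatase Acp1 (-0.058), lay below 0, with a median of -0.20. The median was -0.13 both in the brighter 50% of probes and on the brightest probe per gene. On the brightest probes 7 of 8 lay below 0. Rrs1, which is in both lists, was lowest at -0.33, and Rpf2 lay at -0.31. Nap1l4, a histone chaperone, lay at -0.32, but its probes at -0.55 and -0.089, so that its brightest probe gave the latter. None of either list was 2-fold different, so these are shared small values without a replicate to judge them by.

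**Figure D4:**
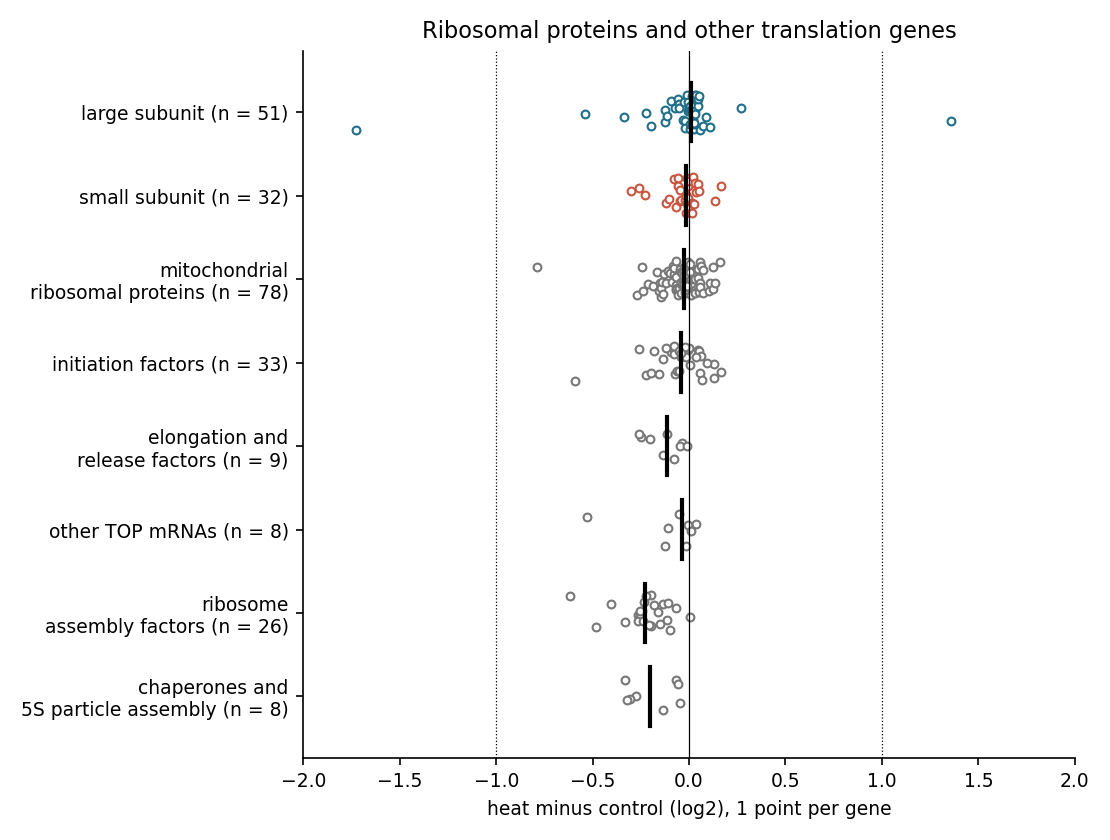
Heat minus control difference (log2) of each measured gene, 1 point per gene, in the large and small subunit, the mitochondrial ribosome and 5 lists of translation and ribosome assembly genes; black bars are medians and dotted lines 2-fold. The bars of the subunits lie at 0.0079 and -0.014, and those of the assembly factors and the chaperone list at -0.23 and -0.20.

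The regulators of these mRNAs gave mixed values. Of 15 genes of mTORC1 and MYC control, 9 lay below 0 with a median of -0.014, which was 0.011 and 0.025 with normexp correction. Myc, which drives ribosome genes, lay at -0.31 with both probes below 0, its partner Max at 0.46, and Tsc1, which restrains mTORC1, at 0.34. On their brightest probes Max lay at 0.27 and Tsc1 at 0.14, and Tsc1 at 0.16 and 0.19 with normexp correction. Of 6 kinase genes with an Rps6ka symbol, 5 were measured, and 1 lay below 0, with a median of 0.12. Rps6ka1 lay at -0.075, Rps6ka4 at 0.027 and Rps6ka5 at 0.12. Rps6ka2 lay at 0.75, and between 0.43 without the filter on dim probes and 1.03 on its brightest probe, and Rps6ka3 at 0.60 with probes between -0.20 and 1.96. Of 13 genes listed under ribosome collision and stress sensing, 11 lay below 0 with a median of -0.10. Over the other scalings and value tables the count ran from 9 to 11 and the median from -0.12 to -0.070. The list is broader than sensors of ribosomes and includes Mdm2 and Trp53. Trp53 was lowest at -0.34, and at -0.24 and -0.25 with normexp correction.

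The tissue label was checked against blood cell markers. Both arrays detected all 9 monocyte markers, with differences from -0.42 (Ctss) to 0.73 (Ccr2) and a median of 0.057, and so were 7 of 8 neutrophil markers. Of the others, 6 of 8 T cell, 2 of 6 B cell, 2 of 9 erythroid and 2 of 7 platelet markers were detected, the same number on both, and Cd79a, Ms4a1, Cd3g, Cd8a, Alas2, Hbb-b1, Itga2b and Ppbp were among those that were not. The medians were 0.017 for neutrophil, 0.16 for T cell, 0.18 for B cell, -0.29 for erythroid and 0.21 for platelet markers. Those of B cell, erythroid and platelet markers rest on 2 genes each. The erythroid value lies between a dim Hba-a1 at 0.028 (56.3 against 56.7) and Tfrc at -0.60, so no direction is given to it. In a bulk sample, fewer cells of a type and less RNA per cell cannot be told apart, and the part of cell makeup in the values above was not tested.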

How the data were processed

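Both arrays were read with Agilent Feature Extraction, version 10.7.1.1 under protocol GE1_107_Sep09 per the file headers, and 9.1 per the submitters' processing notes. The deposited scanner files hold linear intensity values, which that software had background-corrected, per the file headers. The value table that the authors deposited holds log2 values, which differed from quantile-normalized log2 processed signals by a median of 0.00052 and 0.00054 (heat and control). Here, outlier spots (168 and 149) were dropped, log2 processed signals were lowered by each array's 75th percentile (604 and 620) and spots of a probe were averaged. A gene's value is the mean over its probes with over 0.5 of spots well above background on both arrays, 28755 probes in all. Other genes were named through RefSeq transcript records (32994 of 35886 records matched, GRCm38.p6). With 1 array per group no test was made, and 1 on the log2 scale counted as called; array number limits the precision. The members, lists and rules were chosen with earlier results of these data known. Rps19bp1, whose name the pattern takes but which encodes a binding protein, was left out (difference 0.012). Named were the members past 2-fold, the 6 highest and 6 lowest, paralogues with parents, stalk proteins, Rpl5, Rpl11, Rpl13a, Rps18, Rps6, genes with probes 0.5 or more apart, genes detected on 1 array, and up to 3 genes of each list. Alternatives were normexp (offset 50), quantile, cyclic loess and median scaling, the deposited log2 values, filters on dim probes, the brightest probe, saturated spots and a 4-fold threshold; probes at several spots and even spots (pixel variation up to 5%) were added once values had been seen. Of these steps, the 75th percentile scaling and the 2-fold calls were checked on simulated data. The tools were limma 3.58.1 in R 4.3.3, and matplotlib 3.10.9, pandas 2.3.3, scipy 1.17.1 and numpy 2.4.6 in Python 3.11.15. Some members of the lists are not reported here.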

Additional observations from a re-analysis of the deposited data

How the results depend on the processing

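The counts of 2-fold members rest on Rpl37 and Rpl39l, and both were moved by background correction. The 1 member at least 2-fold higher became 0 under normexp correction with either scaling, in the brighter 50% of probes, at 4-fold, on probes at several spots and on even spots. The 1 member lower became 0 under normexp with the 75th percentile, in the brighter probes, at 4-fold, on probes at several spots and on even spots, and 2 without the filter on dim probes, which added Rpl10l. Over all genes, the 39 higher and 84 lower became 11 and 28 (normexp with quantile), 12 and 25 (normexp with the 75th percentile), 3 and 14 (brighter probes), 734 and 1014 (no filter), 5 and 7 (4-fold), 0 and 0 (several spots, of 259 genes) and 0 and 1 (even spots, of 1072 genes). The 27 genes with all probes of one sign became 10 on probes at several spots and 11 on even spots, where 15 and 16 genes had several probes, and the median of all genes became -0.098 without the filter. Among 749 further values of 70 genes and lists, 684 moved by less than 0.093, the SD of a single-spot difference, 65 moved by more, and 19 of the 70 changed sign under some alternative. Among them, Rpl11 went to -0.67 with its dim probe let in, and Rpl13 to -0.57 with its brightest probe and to -0.0022 on even spots. No paired analysis was possible because the groups share a single replicate number. Leaving out a replicate was not possible with 1 array per group.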
